A study of Homo sapiens with 3 samples.

Results

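Integrins and laminins are the receptors and ligands that tie an epithelial cell to its basement membrane. Here their genes were followed in SW48 cells, an established line from a human colorectal cancer. The members were all array probes whose only gene symbol is an integrin alpha or beta subunit or a laminin alpha, beta or gamma chain. This gave 49 probes for 37 genes, of 24658 probes for 18282 genes that carry 1 symbol. The members hold 18 integrin alpha, 8 integrin beta, 5 laminin alpha, 4 laminin beta and 2 laminin gamma genes.

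RNA was measured on 1-colour arrays in 3 samples, 1 per group. Cells of the first group carried a DDX3 overexpression plasmid and a YAP1 knockdown plasmid (DDX3+YAPsi), those of the next the DDX3 plasmid alone (DDX3), and those of the last the empty vector pcDNA3.1 (vector). All were selected with G418 for 4 weeks and used as stable cells, and the labels do not say whether these were clones or pools. No library carried the knockdown plasmid without the DDX3 plasmid, so an effect of that plasmid that does not need DDX3 cannot be told apart. DDX3 is an RNA helicase, and YAP1 is the transcriptional coactivator of the Hippo pathway. With 1 sample per group no difference could be tested, so every difference below is between single libraries, with no p-value or SD, and the number of arrays limits its precision.

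An integrin is a pair of 1 alpha and 1 beta subunit in the plasma membrane. The pair chosen sets the ligand: some bind laminins, others bind collagen, fibronectin or vitronectin, and the beta 2 pairs bind counter-receptors on leukocytes and endothelium. A laminin is a trimer of an alpha, a beta and a gamma chain, secreted into the basement membrane. In intestinal epithelium alpha 6 beta 4 anchors cells to laminin at hemidesmosomes, and alpha 6 beta 1 and alpha 3 beta 1 bind laminin at other contacts.

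Values are intensities scaled so that the 75th percentile was the same in the 3 samples. The column median of all 31741 probes served as the floor, at scaled intensities of 411 in DDX3+YAPsi, 382 in DDX3 and 378 in vector. The targeted genes did not bear out the labels. The YAP1 probe had 20768 in the library labelled DDX3+YAPsi, 20279 in that labelled DDX3 and 18298 in vector. The brighter DDX3X probe had 48085, 57967 and 49549 in the same order, and the dimmer had 813, 879 and 1975. Where these probes lie in the transcripts is not known, so either DDX3X probe may lie outside the insert of the plasmid, and the groups are called by their labels throughout. Of 11 colon epithelial markers on the array, 8 lay above the floor in DDX3+YAPsi, 9 in DDX3 and 10 in vector, EPCAM, CDH1, CDX2 and KRT20 among them in each. CEACAM5 lay above it in vector only, and KRT8 in DDX3 and vector but not in DDX3+YAPsi.

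Member probes lay about evenly on each side of the column median. Of the 49 probes, 24 were above it in DDX3+YAPsi, 23 in DDX3 and 24 in vector, or 49.0%, 46.9% and 49.0%, where 54.6%, 54.7% and 54.7% of all 1-symbol probes were. The same 23 probes were above it in all 3 libraries and 24 were below it in all 3, so 2 probes lay on different sides. At the level of genes, 18 members had a probe above the median in every library, 18 had none above it in any, and ITGAL alone was mixed. Laminin probes were above the median in 9 of 14 cases in each library, and integrin probes in 15 of 35 in DDX3+YAPsi, 14 in DDX3 and 15 in vector.

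**Figure D1:**
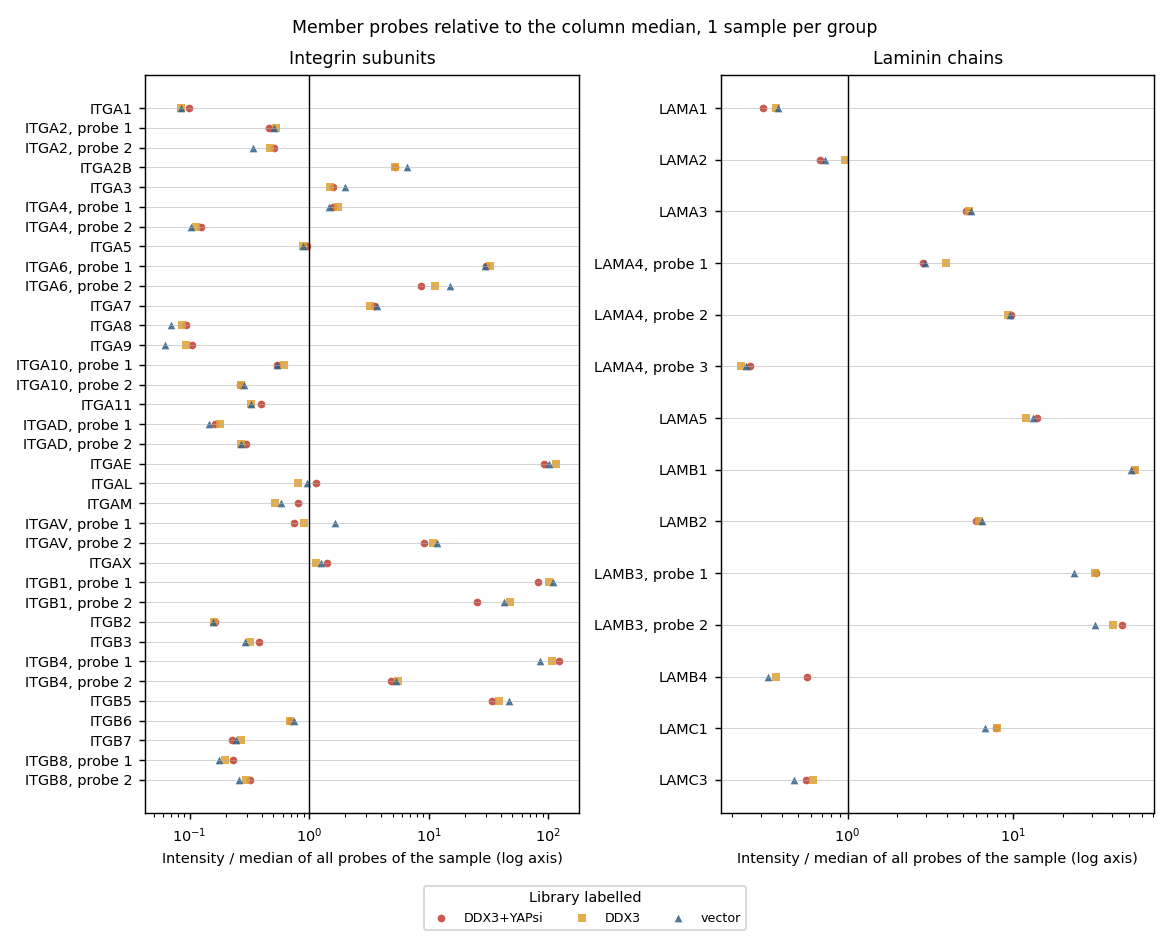
Intensity of each of the 49 member probes divided by the median of all probes of its sample (log axis), for integrin subunits (left) and laminin chains (right). Circles are the library labelled DDX3+YAPsi, squares DDX3 and triangles vector, with 1 sample each. The line at 1 is the column median; 23 probes lie right of it and 24 left of it in all 3 libraries, and each probe's 3 values lie close together compared with the range over probes, which also differ in how strongly they hybridise.

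Among the integrin beta genes, ITGB1, ITGB4 and ITGB5 were above the median with every probe in every library, and ITGB2, ITGB3, ITGB6, ITGB7 and ITGB8 were below it with every probe. ITGB1 encodes the common partner of most laminin, collagen and fibronectin receptors, ITGB4 the partner of alpha 6 at hemidesmosomes, and ITGB5 a vitronectin receptor subunit that pairs with alpha V. Their brightest probes stood at 82.1, 123 and 34.0 times the column median in DDX3+YAPsi, at 102, 109 and 38.9 times in DDX3 and at 109, 84.8 and 47.0 times in vector. ITGB6, an epithelial partner of alpha V, came nearest to the median from below, at 0.693 times in DDX3+YAPsi, 0.690 in DDX3 and 0.755 in vector. ITGB2, the leukocyte beta subunit, was at 0.164, 0.160 and 0.157 times.

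Of the integrin alpha genes, ITGA2B, ITGA3, ITGA6, ITGA7, ITGAE and ITGAX were above the median in every library with every probe, and ITGA4 and ITGAV with 1 of 2 probes. ITGA6 and ITGA3 encode laminin receptor subunits, ITGA7 the laminin receptor subunit best known from muscle, and ITGAV the alpha subunit shared by vitronectin receptors. ITGAE, the alpha E subunit known from intraepithelial lymphocytes, was far above the column median, at 92.2 times in DDX3+YAPsi, 117 in DDX3 and 101 in vector. Its known partner ITGB7 was below the median in every library, at 0.225, 0.268 and 0.242 times. ITGA2B, the platelet alpha IIb subunit, was at 5.24, 5.20 and 6.66 times, while its partner ITGB3 was at 0.380, 0.322 and 0.290 times.

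The collagen receptor genes ITGA1, ITGA2, ITGA10 and ITGA11 were below the median with every probe, as were ITGA8 and ITGA9 and the leukocyte subunit genes ITGAD and ITGAM. ITGA5, the alpha subunit of the classical fibronectin receptor, lay just below it at 0.962 times in DDX3+YAPsi, 0.887 in DDX3 and 0.883 in vector. ITGAX, a leukocyte alpha subunit, lay just above it, at 1.40, 1.15 and 1.27 times. ITGAL, the alpha subunit of the leukocyte receptor LFA-1, was above it at 1.15 times in DDX3+YAPsi, but below it at 0.814 in DDX3 and 0.966 in vector. These last 3 genes therefore change side with a small move of the level, and 9 member probes lay within 1.5-fold of the median in some library.

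Markers of the cells that these subunits are known from were mostly below the floor. Of 11 leukocyte markers on the array, 3 exceeded it in DDX3+YAPsi (CD14, CD68 and CORO1A), 4 in DDX3, where CD3D joined them, and 3 in vector, and PTPRC, the pan-leukocyte marker, did not in any. Their summed scaled intensity was 4860 in DDX3+YAPsi, 4758 in DDX3 and 4722 in vector. None of 4 megakaryocyte and platelet markers exceeded the floor in any library, with sums of 613, 537 and 400. None was at 0. Of 5 endothelial markers, VWF and CDH5 exceeded the floor in DDX3+YAPsi, VWF in DDX3 and none in vector. Of 9 fibroblast and mesenchymal markers COL1A1 alone did, in each library, and none of 5 muscle markers did in any. Whether other cells or cross-hybridisation contribute to the signal of ITGAE, ITGA2B or ITGAX was not tested. In bulk RNA, fewer cells of a type and less RNA per cell cannot be told apart.

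Laminin chain genes above the median in every library were LAMA3, LAMA5, LAMB1, LAMB2, LAMB3 and LAMC1, and LAMA4 with 2 of its 3 probes. LAMA3 and LAMB3 encode chains of laminin-332, the ligand of alpha 6 beta 4 in epithelia, and LAMA5 with LAMB1 and LAMC1 encodes laminin-511, the main laminin of adult epithelial basement membranes. LAMB1 was at 54.2 times the column median in DDX3+YAPsi, 54.5 in DDX3 and 52.1 in vector. LAMA1, LAMA2, LAMB4 and LAMC3 were below the median. LAMA2, the muscle and nerve laminin chain, was at 0.684 times in DDX3+YAPsi, 0.972 in DDX3 and 0.734 in vector.

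Set against 24 textbook integrin pairs, 7 had a probe of both subunits above the median in every library. They were beta 1 with alpha 3, alpha 4, alpha 6, alpha 7 or alpha V, and also alpha V beta 5 and alpha 6 beta 4. Of 12 laminin trimers considered, 6 had all chains above it, namely alpha 3, alpha 4 or alpha 5 with beta 1 or beta 2 and gamma 1. RNA above the median does not show that a pair or trimer was assembled.

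Between libraries, log2 values were averaged over the probes of a gene, which counted as measured when the mean reached the floor in both libraries, and as higher or lower at a 2-fold difference. Of the 37 members, 17 were measured in each comparison: 7 integrin alpha, 3 integrin beta, 3 laminin alpha, 3 laminin beta and 1 laminin gamma gene. None was at least 2-fold higher or lower in any comparison. Over all genes measured, 0.183% were higher by that fold and 0.152% lower in DDX3 against vector, 0.112% and 0.163% in DDX3+YAPsi against DDX3, and 0.274% and 0.203% in DDX3+YAPsi against vector. At these shares 17 genes would hardly include a call, so the absence of one says little about the members.

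The median log2 difference of the members was close to that of all genes. In DDX3 against vector it was -0.04, beside -0.01 for all measured genes, with 7 of 17 above 0 where 48.8% of all genes were. In DDX3+YAPsi against DDX3 it was 0.08, beside 0.02, with 12 of 17 above 0 where 52.6% of all genes were. In DDX3+YAPsi against vector it was 0.03, beside 0.02, with 10 of 17 above 0 where 52.2% of all genes were. The 3 comparisons share libraries pairwise, so they are not independent. The median size of the members' differences, sign aside, was 0.18, 0.14 and 0.22, where all genes had 0.17, 0.20 and 0.21.

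**Figure D2:**
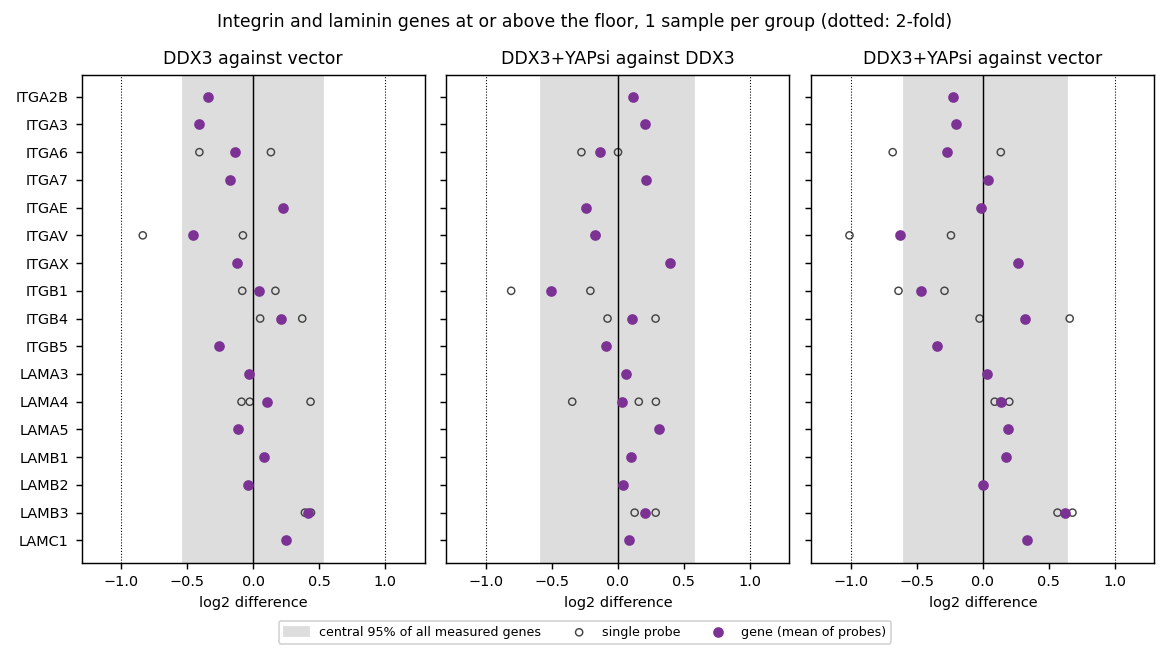
Log2 differences of the 17 measured members in the 3 comparisons, each between single libraries. Filled points are genes, open circles their single probes where there are several, the grey band the central 95% of all measured genes, and dotted lines a 2-fold difference. No gene reaches 2-fold; LAMB3 at 0.62 and ITGAV at -0.63 in DDX3+YAPsi against vector lie farthest out, ITGAV by a mean that includes a probe below the floor in DDX3+YAPsi.

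The medians of laminin and integrin genes had different signs in DDX3+YAPsi against vector, while the 2 families overlapped. The 7 measured laminin genes were at or above 0, between 0.001 and 0.62 with a median of 0.18, and 7 of the 10 measured integrin genes were below it, with a median of -0.21. ITGB4, ITGAX and ITGA7, at 0.32, 0.27 and 0.04, were the integrin genes above it. In DDX3 against vector the medians were 0.08 for laminin and -0.16 for integrin genes. In DDX3+YAPsi against DDX3 they were 0.08 and 0.01, or -0.02 and -0.10 with a common median in place of the 75th percentile. All genes had 0.02 in that comparison, or -0.08 with the common median. Some genes changed side in DDX3+YAPsi against vector. ITGAE turned to 0.01 with quantile normalisation and ITGA6 to 0.14 by its brightest probe. With the common median ITGA7 turned to -0.08, LAMA3 to -0.09 and LAMB2 to -0.12. The ITGAV value includes a probe below the floor in DDX3+YAPsi. The splits between the families are descriptions of 3 libraries and were not tested. With that common median, 5 of 7 laminin and 2 of 10 integrin genes were above 0 in DDX3+YAPsi against vector, with medians of 0.06 and -0.33. All genes then had a median of -0.10, with 3713 of 9855 above 0. Without scaling all 17 genes were below 0 in both comparisons of DDX3+YAPsi. Of all genes, 330 of 9834 were above 0 against DDX3 and 133 of 9855 against vector. The unscaled medians were -0.56 for laminin and -0.96 for integrin genes against vector, beside -0.72 for all genes.

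LAMB3, the beta 3 chain of laminin-332, was highest above vector of the 17 measured members in both plasmid libraries, and its probes moved together. One probe had scaled intensities of 13030 in DDX3+YAPsi, 11937 in DDX3 and 8805 in vector. The other had 18853, 15463 and 11775. On each probe DDX3+YAPsi was highest and vector lowest. The gene value was 1.54-fold higher in DDX3+YAPsi than in vector (log2 difference 0.62), which placed it at rank 273 from the highest of 9855 measured genes, and 3.4% of them were at least 1.5-fold higher. It was at 0.42 in DDX3 against vector, rank 522 of 9863, and at 0.21 in DDX3+YAPsi against DDX3. The probes differed from each other by 0.11 in DDX3+YAPsi against vector, where the median gap over 2083 genes with 2 measured probes was 0.26. Without scaling these differences were -0.12, 0.22 and -0.34.

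ITGB1, the common beta subunit, was lowest in DDX3+YAPsi on each of its probes. Its brighter probe had 33713 in DDX3+YAPsi, 38973 in DDX3 and 41245 in vector. Its dimmer probe had 10472, 18354 and 16318. The order of DDX3 and vector was not the same on the probes. The gene value was at -0.51 in DDX3+YAPsi against DDX3, rank 408 from the lowest of 9834, made up of -0.21 on the brighter and -0.81 on the dimmer probe. This gap of 0.60 was wider than that of 92.0% of genes with 2 measured probes. Against vector the gene value was -0.47, and in DDX3 against vector it was 0.04.

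The sequences upstream of LAMB3 and ITGB1 are shown because, of the 3 members with a listed promoter and several bright probes on one side of 0, these were the highest and the lowest in DDX3+YAPsi against vector. Each line gives the 250 bases before the first start listed by RefSeq (GRCh38.p14), 5′ to 3′ on the gene's strand. LAMB3 is on the minus strand at chr1:209652426-209652675, 1 of 3 starts listed, and ITGB1 on the minus strand at chr10:32958231-32958480, 1 of 2 starts listed. Capitals mark matches, on either strand, to the AP-1 motif TGANTCA, the TEAD motif GGAATG (TEAD factors are the DNA-binding partners of YAP1), the GC box GGGCGG and the TATA box TATAAA.
LAMB3: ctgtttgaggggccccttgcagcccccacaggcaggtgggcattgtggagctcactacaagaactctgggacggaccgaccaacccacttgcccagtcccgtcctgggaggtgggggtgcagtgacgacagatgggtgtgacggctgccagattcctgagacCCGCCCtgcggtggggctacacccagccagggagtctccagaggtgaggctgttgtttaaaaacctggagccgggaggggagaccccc
ITGB1: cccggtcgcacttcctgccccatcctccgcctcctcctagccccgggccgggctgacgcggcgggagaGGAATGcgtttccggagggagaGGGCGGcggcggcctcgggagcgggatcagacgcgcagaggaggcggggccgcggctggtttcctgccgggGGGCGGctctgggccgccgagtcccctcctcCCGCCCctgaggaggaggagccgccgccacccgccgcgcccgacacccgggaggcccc

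LAMB3 held 1 GC box match, 88 bases before its start, and none of the other motifs. ITGB1 held 3 GC box matches and 1 TEAD match, 182 bases before its start, and no matches overlapped. Over the windows of 27305 symbols, 42.3% held a GC box match, 11.9% a TEAD, 11.1% a TATA box and 6.60% an AP-1 match. Of 26 members with a window, 13 held a GC box match, 4 a TEAD match (ITGA5, ITGA10, ITGB1 and LAMA2), and 1 each an AP-1 (LAMA3) and a TATA box match (ITGA6). A match is a description of the letters and no evidence of binding.

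**Figure D3:**
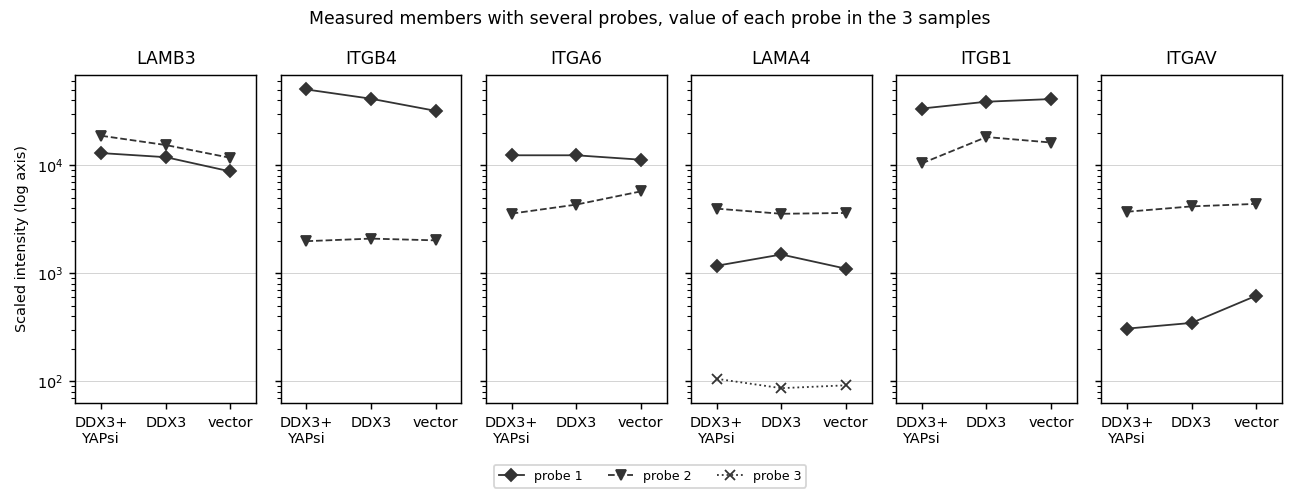
Scaled intensity (log axis) of each probe of the 6 measured members with several probes, in the libraries labelled DDX3+YAPsi, DDX3 and vector, 1 sample each. Lines join the values of 1 probe. Both LAMB3 probes are highest in DDX3+YAPsi and both ITGB1 probes lowest there, while the probes of ITGB4 and ITGA6 part from each other.

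Hemidesmosome subunits gave different answers by probe. The brighter ITGB4 probe had 50611 in DDX3+YAPsi, 41537 in DDX3 and 32077 in vector, a difference of 0.66 for DDX3+YAPsi against vector. The dimmer had 1990, 2102 and 2025, a difference of -0.03. The gene value of 0.32 averages a probe that differed and one that hardly did. For ITGA6, the brighter probe had 12434, 12432 and 11318 and the dimmer 3583, 4341 and 5755, so that the gene value of -0.27 in DDX3+YAPsi against vector joins 0.14 and -0.68. Their gaps of 0.68 and 0.82 were wider than those of at least 90.8% of genes with 2 measured probes. With the brightest probe alone ITGA6 turned to 0.14 and ITGB4 was at 0.66.

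ITGAV, the alpha subunit of vitronectin receptors, was at -0.63 in DDX3+YAPsi against vector as the mean of its probes, past 1.5-fold, where 2.91% of genes were at least 1.5-fold lower. That value is not fully measured, since it rests largely on the dimmer probe, which had 308 in DDX3+YAPsi, 348 in DDX3 and 621 in vector. The first 2 of these lie below the floor, so on that probe DDX3+YAPsi was at least 1.51-fold and DDX3 at least 1.63-fold lower than vector. The brighter probe had 3728, 4181 and 4409, a difference of -0.24 against vector for DDX3+YAPsi and -0.08 for DDX3, which is also the gene's value with the brightest probe. By the brightest probe ITGAV was nearer 0 in DDX3+YAPsi against vector than ITGB5, at -0.35, and ITGB1, at -0.29. ITGB5, its partner, had 13955, 14866 and 17769, lowest in DDX3+YAPsi, with differences from vector of -0.35 for DDX3+YAPsi and -0.26 for DDX3. On the brighter ITGAV probe and the ITGB5 probe DDX3+YAPsi was lowest and vector highest, and on the dimmer ITGAV probe vector was highest and the other libraries, both below the floor, have no order.

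The other measured integrin genes rest on 1 probe each. ITGA3 had 654 in DDX3+YAPsi, 567 in DDX3 and 754 in vector, and was lowest in DDX3, at -0.41 against vector. ITGA2B showed the same order with 2154, 1986 and 2517, at -0.34. ITGA7 had 1436, 1238 and 1400, again lowest in DDX3, at -0.18. ITGAE stood the other way, with 37864, 44690 and 38278, highest in DDX3 at 0.22 against vector and then -0.24 in DDX3+YAPsi against DDX3. ITGAX, at 576, 439 and 479, had the largest positive difference of the 17 measured members in DDX3+YAPsi against DDX3, 0.39, close to the floor.

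Among laminin chains, LAMC1, the gamma 1 chain of most trimers, was above vector in both plasmid libraries, with 3232 in DDX3+YAPsi, 3051 in DDX3 and 2565 in vector. Its differences from vector were 0.33 for DDX3+YAPsi and 0.25 for DDX3. LAMA5 was highest in DDX3+YAPsi, with 5712 there, 4603 in DDX3 and 4993 in vector, a difference of 0.31 against DDX3. LAMB1 had 22281, 20811 and 19693, at 0.18 in DDX3+YAPsi against vector. LAMA3 and LAMB2 differed by at most 0.06 in any comparison. LAMA3 had 2153, 2066 and 2111, and LAMB2 2463, 2396 and 2462, while LAMB3, which pairs with the alpha 3 chain in laminin-332, was at 0.62 in DDX3+YAPsi against vector. Of the 3 LAMA4 probes, 2 were above the floor, with 1178, 1498 and 1108 on one and 3983, 3570 and 3633 on the other. The first was highest in DDX3 and the second in DDX3+YAPsi, and the gene values, which also average in the probe below the floor, were 0.11 in DDX3 against vector and 0.03 in DDX3+YAPsi against DDX3.

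Probes below the median in every library drifted upwards as a class, members and others alike. Of 24 such member probes, 21 were above 0 in DDX3+YAPsi against vector, with a median of 0.32. Of all 10633 such probes, 78.3% were, with a median of 0.23. Single dim members such as LAMB4, with 233 in DDX3+YAPsi, 141 in DDX3 and 125 in vector, or ITGAM, with 334, 199 and 221, are therefore given as values below the floor and not as differences. ITGAL had 472 in DDX3+YAPsi, just above the floor, against 311 in DDX3 and 365 in vector, both below it. Set against the floors of DDX3 and vector, its DDX3+YAPsi value was 1.24-fold and 1.25-fold higher. These bounds take no account of the drift of dim probes, so they are not read as a difference.

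No gene of 4 lists of ligands, adaptors and partners was at least 2-fold higher or lower in any comparison. Of all measured genes, 0.112% to 0.274% were in each direction, depending on the comparison. At these shares lists of this size would hardly include a call, so its absence says little about them. Of 18 other basement membrane and matrix genes, 4 were measured, and collagen IV chains, nidogens and FN1 were below the floor. HSPG2, the basement membrane proteoglycan perlecan, had 1337 in DDX3+YAPsi, 2296 in DDX3 and 1849 in vector, a difference of -0.78 for DDX3+YAPsi against DDX3. AGRN, the proteoglycan agrin, had 8797, 5992 and 7006, a difference of 0.55 in that comparison. These laminin-binding proteoglycans, with 1 probe each, lay on opposite sides of 0.

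Integrin adaptors and signalling genes were measured for 23 of 32, with medians of 0.06 in DDX3 against vector, 0.12 in DDX3+YAPsi against DDX3 and 0.18 in DDX3+YAPsi against vector, and 15 of 23 above 0 in the last. All measured genes had medians of -0.01, 0.02 and 0.02, with 52.2% above 0 in the last. Without scaling the list's medians were -0.14, -0.42 and -0.56, beside -0.20, -0.52 and -0.72 for all genes. TLN1, the gene of talin, which links beta subunits to actin, had 13807 in DDX3+YAPsi, 9604 in DDX3 and 8004 in vector, at 0.79 against vector. FLNA, the gene of the actin crosslinker filamin A, had 28955, 26563 and 17273, at 0.75. Both were highest in DDX3+YAPsi and lowest in vector, on 1 probe each. Genes of this list are named for the size of their differences. ZYX, the focal adhesion protein zyxin, had 3886, 2293 and 2933 on its 1 probe, at 0.76 in DDX3+YAPsi against DDX3. ITGB3BP, a nuclear and centromere protein first found as a beta 3 tail binder, was the lowest of the list in that comparison at -0.77.

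Of 10 hemidesmosome genes and other laminin receptors, 9 were measured and 7 were above 0 in DDX3+YAPsi against DDX3, where 52.6% of all genes were, with a median of 0.25 beside 0.02. With a common median, quantile normalisation or loess, 6 of the 9 were above 0, where 3825, 4853 and 4754 of all 9834 genes were. Without scaling none was, where 330 of all 9834 genes were, and the median was -0.29 beside -0.52 for all genes. In DDX3 against vector 3 of the 9 were above 0, with a median of -0.06 beside -0.01. In DDX3+YAPsi against vector 7 were, with a median of 0.19 beside 0.02. Of all genes, 48.8% and 52.2% were above 0 in these 2 comparisons. DAG1, the laminin receptor dystroglycan, had 43493 in DDX3+YAPsi, 32042 in DDX3 and 33180 in vector, a difference of 0.44 for DDX3+YAPsi against DDX3. CD151, the tetraspanin partner of laminin-binding integrins, was at 0.27 and BCAM, a receptor of laminin alpha 5, at 0.32. RPSA, a ribosomal protein also described as a laminin receptor, was at -0.74 in DDX3+YAPsi against vector. DAG1, CD151 and RPSA rest on 1 probe each. Of 7 counter-receptor genes, 4 were measured and all 4 were above 0 in DDX3+YAPsi against DDX3, where 52.6% of all genes were, with a median of 0.30 beside 0.02. With a common median 3 of the 4 were above 0, where 3825 of all 9834 genes were. Without scaling 1 was, where 330 of all 9834 genes were, with a median of -0.24 beside -0.52 for all genes. Among them ICAM1, the ligand of beta 2 integrins, was at 0.56, MADCAM1, the ligand of alpha 4 beta 7, at 0.50, ICAM3 at 0.11 and CDH1, the E-cadherin that alpha E beta 7 binds, at 0.08. The same 4 genes, with 1 probe each, were all below 0 in DDX3 against vector (3 with loess), with a median of -0.145 beside -0.01. In DDX3+YAPsi against vector 3 of the 4 were above 0, with a median of 0.14 beside 0.02. With a common median 2 were, where 3713 of all 9855 genes were, with a median of 0.02 beside -0.10 for all genes.

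**Figure D4:**
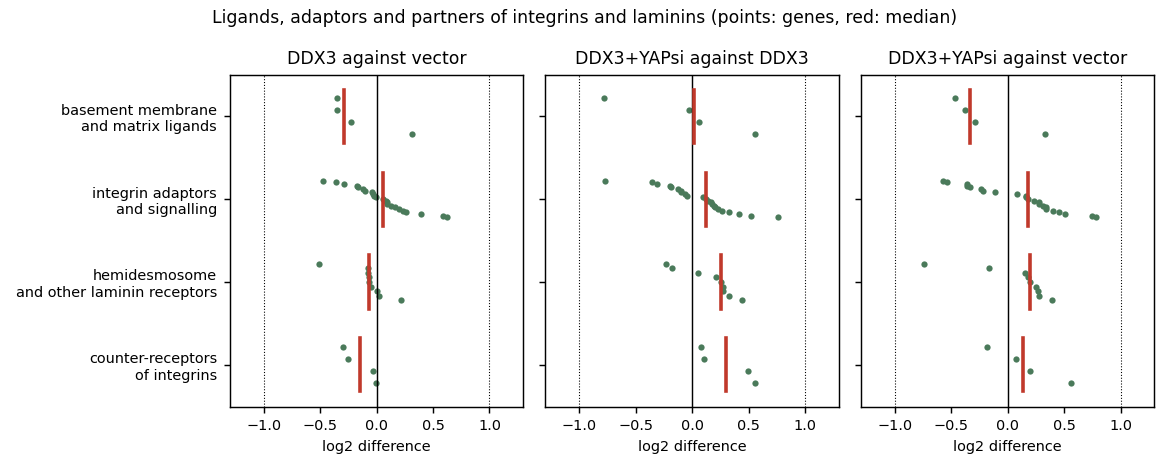
Log2 differences of measured genes in 4 lists around integrins and laminins, for the 3 comparisons between single libraries. Points are genes, red bars list medians and dotted lines a 2-fold difference. No gene reaches 2-fold, where at most 0.274% of all measured genes do in either direction. The adaptor list spreads over both sides of 0 in each comparison.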

How the data were processed

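Cy5-labelled RNA of 3 SW48 samples was measured on 1-colour arrays. Each sample covers 2 technical replicates, per the labels, and their separate values were not analysed here. The deposited values hold linear intensity per probe, judged by their range, with medians of 305 for DDX3+YAPsi, 414 for DDX3 and 469 for vector. What the authors did to correct or scale them is not stated in the labels.

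Samples were multiplied by 1.35, 0.922 and 0.806 to a common 75th percentile, and log2 was taken (Python 3.11.15, numpy 2.4.6, pandas 2.3.3, loess by statsmodels 0.14.6). Shifts common to most genes are removed by this. Of 31741 probes, the platform annotation, which can be old, gave 1 symbol to 24658, several to 1002 and none to 6081. All 37 member symbols were found in RefSeq (GRCh38.p14). Members and lists were chosen with earlier results of these data known. Any member could be named, with up to 4 genes of each other list that had the largest differences. Collagen IV, nidogens, FN1 and single markers were named after their values were known. The code was tested on simulated data. Alternatives were other scalings and floors, a 1.5-fold threshold, a pseudocount of 100, the brightest probe and single probes.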

Additional observations from a re-analysis of the deposited data

How the results depend on the processing

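The sign of each member median changed with 1 kind of alternative run: the floor in DDX3 against vector, and the scaling in both comparisons of DDX3+YAPsi. Without scaling, the member medians were -0.23 in DDX3 against vector, -0.46 in DDX3+YAPsi against DDX3, and -0.71 in DDX3+YAPsi against vector. All genes then had medians of -0.20, -0.52 and -0.72. In the same order, 4, 0 and 0 of 17 members were above 0, and 0, 1 and 4 at least 2-fold lower. Of all genes, 2098 of 9863, 330 of 9834 and 133 of 9855 were above 0, and 45, 556 and 1892 at least 2-fold lower. With a common median, the member medians of the last 2 comparisons turned to -0.023, with 6 above 0, and -0.092. All genes then had medians of -0.085, with 3825 of 9834 above 0, and -0.103. A floor at the 25th percentile measured 30 members and gave 16, 22 and 21 above 0, with medians of 0.019 and 0.16 in the first and last comparison. Of all genes, 7218 of 14133, 8181 of 14122 and 8410 of 14146 were then above 0, with medians of 0.006 and 0.080 in the first and last. A floor at the 75th percentile measured 10 members. In the comparisons of DDX3+YAPsi 6 were above 0, beside 2373 of all 4802 genes against DDX3 and 2212 of 4803 against vector. The member median of DDX3 against vector turned to 0.062, beside -0.010 for all genes. No floor gave 23, 28 and 28 of 37 above 0, with medians of 0.044 in the first and 0.19 in the last. Of all 18282 genes, 10079, 11081 and 11855 were then above 0, with medians of 0.033 in the first and 0.127 in the last. Counted as single probes, 11 of 23 were above 0 in DDX3 against vector, beside 6419 of 13161 probes of all genes. At 1.5-fold, 1 member was higher (LAMB3) and 1 lower (ITGAV, with 1 of its 2 probes below the floor) in DDX3+YAPsi against vector. Above the 75th percentile of the column lay 15 member probes in DDX3+YAPsi and 15 in DDX3, and above the 25th lay 39 in DDX3+YAPsi, 40 in DDX3 and 40 in vector. Leaving the missing scaling aside, 14, 10 and 12 of 17 members kept their direction in the 5 alternatives that can change a gene's value (common median, quantile, loess, pseudocount and, for genes with several probes, the brightest probe), LAMB3, ITGAV and ITGB5 among them in each comparison. Leaving out a replicate was not possible with 1 sample per group. Values near the floor limit what the dim members can show. No paired analysis was possible because each group has 1 sample and no test was made.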
